A study of Mus musculus with 8 samples.

Results

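Mitochondrial ribosomal protein genes were taken as all protein-coding genes whose symbol is Mrpl or Mrps followed by a number and at most 1 letter, which gave 78 of the 56953 gene identifiers in the deposited count table. The RNA came from CT26, a cell line of mouse colorectal carcinoma, as tumours transplanted into mice and as cultures. The tumours had received normal saline or mLJZD, a treatment whose name the labels leave unexpanded and whose dose and duration in mice they do not give, and the cultures had been kept for 48 h with 10% control serum or with 10% serum containing mLJZD. Each of these 4 groups had 2 libraries, named here replicate 1 and replicate 2. The labels do not say whether the replicates came from separate animals or cultures, so that each p-value reflects a spread that may be that of technical repeats.

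The mitochondrial ribosome translates the few proteins encoded in mitochondrial DNA, all of which are subunits of the respiratory chain or of ATP synthase, whereas its own proteins are encoded in the nucleus, made in the cytosol and imported. It descends from a bacterial ribosome: many of its proteins have bacterial homologues and others were added in the mitochondrial lineage. The promoters of its genes are known for binding sites of nuclear respiratory factors, namely NRF1 and the ETS-family factor GABP.

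Of the 78 genes, 51 encode proteins of the large subunit, among them Mrps18a and Mrps30 despite their names, and 26 encode proteins of the small subunit. Mrps36 carries such a symbol but encodes a component of the 2-oxoglutarate dehydrogenase complex. Bacterial homologues are known for 46 of them, and 30 are found in mitochondria only. Their coding parts are short, with a median of 582 bases and a range from 195 to 1326, against a median of 1377 bases for the coding genes tested in cultures. The annotated transcripts had a median of 1302 bases (418 to 7300), against 3007 for those coding genes. Annotated length and coding length diverged among them: 25 genes with an annotated transcript of 2000 bases or more had a median coding length of 618 bases, close to that of the set.

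Promoter windows, from 250 bases before to 50 bases after the transcription start, were matched by symbol for 69 of the 78 genes in a RefSeq table of build GRCm38.p6. The unmatched genes were Mrpl4, Mrpl13, Mrpl15, Mrpl19, Mrpl38, Mrpl54, Mrps28, Mrps34 and Mrps35. Stretches of 150 bases directly before the start are printed for 4 genes on which the expression results turn, chosen because they hold a motif. Capitals mark the motif on either strand: the NRF1 motif in Mrpl57 (chr14:57826089-57826238), Mrpl45 (chr11:97315566-97315715) and Mrpl12 (chr11:120484487-120484636), and the ETS motif in Mrps26 (chr2:130563607-130563756), all on the plus strand.
Mrpl57: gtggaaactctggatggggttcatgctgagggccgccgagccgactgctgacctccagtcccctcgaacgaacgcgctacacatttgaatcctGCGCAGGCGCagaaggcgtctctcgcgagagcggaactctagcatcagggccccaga
Mrpl45: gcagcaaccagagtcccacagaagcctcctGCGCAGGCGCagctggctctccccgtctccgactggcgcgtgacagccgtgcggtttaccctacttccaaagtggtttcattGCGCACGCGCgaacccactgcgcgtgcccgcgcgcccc
Mrpl12: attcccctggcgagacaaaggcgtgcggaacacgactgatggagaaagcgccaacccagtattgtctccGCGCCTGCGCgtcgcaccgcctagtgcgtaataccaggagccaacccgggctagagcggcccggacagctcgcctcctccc
Mrps26: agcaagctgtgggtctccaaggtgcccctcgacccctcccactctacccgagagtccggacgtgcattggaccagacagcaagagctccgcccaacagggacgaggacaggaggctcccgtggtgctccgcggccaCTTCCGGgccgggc

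The NRF1 motif, GCGCA followed by any base and GCGC, was searched like the others on both strands. A gene was counted if any of its windows held the motif. For NRF1 these were 13 of the 69 genes (18.8%), against 5.19% of the 27025 genes in the table and 7.44% of coding genes. The ETS motif CCGGAAG was held by 26 (37.7% against 9.93% of all genes and 13.4% of coding genes). The YY1 motif AAGATGGC was held by 12 (17.4% against 3.19% and 3.63%). At least 1 of the NRF1, ETS and YY1 motifs was present in 43 genes (62.3%), against 16.4% of all genes and 21.6% of coding genes. For motifs of other promoters the shares were closer to those of all genes or lower. GGGCGGGG (SP1) was held by 23.2% against 19.6%, CCAAT by 39.1% against 41.1%, the E-box CACGTG by 7.25% against 8.09%, and TATAAA by 7.25% against 15.7%. Among coding genes these shares were 27.2%, 42.1%, 9.18% and 14.3%, each above that of the set. In all, 11 letter forms were searched, and the form given first for each factor was picked after the shares were seen. The other forms overlap these. The NRF1 motif with T at its open position was held by 4.35% against 1.07%, CCGGAAGT by 17.4% against 4.31%, CGGAAG by 56.5% against 18.8%, and AAGATGGC followed by GGC by 7.25% against 0.755%. A match describes letters in a window and is no evidence of binding.

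Library totals ran from 16594912 to 29363861 counts, of which the 78 genes held 43822 to 119887 per library. Of the 78, 77 were detected and passed the filter on low counts in every comparison. The exception was Mrpl53, which had 0 counts in all 8 libraries. All 695 bases of its principal transcript overlap Gm42688 on the same strand, which itself had 3 to 27 counts, and the part of that overlap in the zero was not tested. A further 32 genes share exon bases with another gene, on the opposite strand or the same strand. The sources used here do not give the strand setting, which could not separate genes on the same strand. Counts of these genes may include reads of the overlapping gene or lack shared reads. Of 10 epithelial markers, Krt20 had 141 to 276 CPM in every library and made up most of their sum (0.0174% to 0.0299% of counts), and Krt18 had 29.2 to 39.0 CPM in cultures. Epcam and Cldn4 had 0 counts in all cultures.

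The set took the largest share of counts in control cultures. There it held 0.498% ± 0.0194 of all counts (SD, n = 2), in mLJZD cultures 0.354% ± 0.00325, in saline tumours 0.268% ± 0.000849 and in mLJZD tumours 0.267% ± 0.00438. The tumour groups overlapped, whereas each culture group stood apart from all other libraries. In CPM, counts scaled to the library total, 73 of the 77 detected genes had their highest group mean in control cultures, and 57 had a mean in mLJZD cultures above both tumour groups. The share of all genes with these orders was not determined, so that the counts do not set the genes apart.

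**Figure D1:**
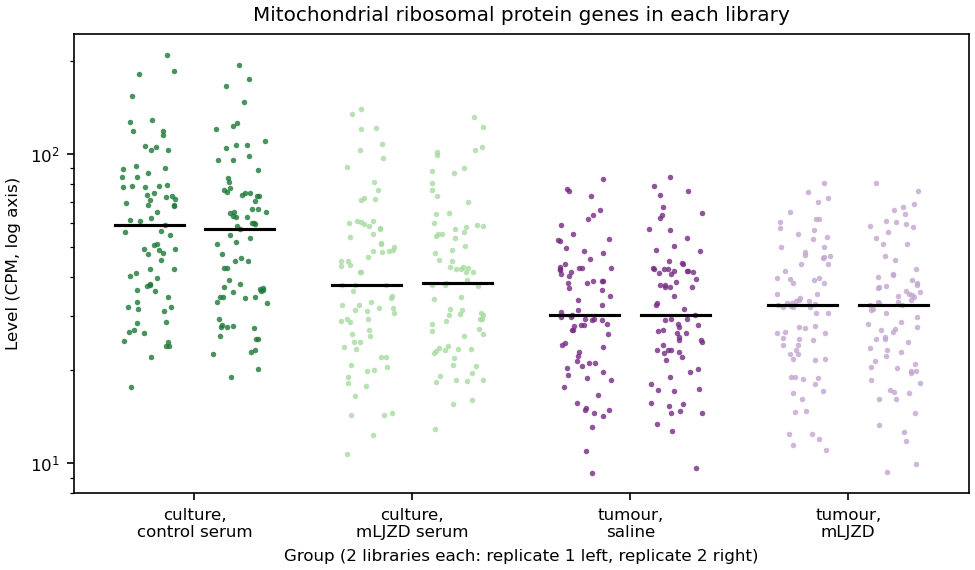
Level of each detected mitochondrial ribosomal protein gene (points, CPM, log axis) in the 8 libraries, 2 per group, with replicate 1 left and replicate 2 right; bars mark the median of the detected genes in each library. The control cultures are highest, the mLJZD cultures lie between them and the tumours, and the saline and mLJZD tumours lie close to each other.

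Levels of different genes were compared per length, as TPM, which scales counts to transcript length and library, on annotated transcript length. In control cultures the levels ran from 308 ± 26.0 TPM (SD, n = 2) for Mrps21, a small-subunit protein with a bacterial homologue, down to 12.4 ± 0.592 TPM for Mrpl47, a 24.8-fold range around a median of 68.5 TPM. Mrpl52 (297 TPM), Mrpl42 (294 TPM), Mrpl13 (264 TPM), Mrpl12 (255 TPM), the stalk protein that contacts translation factors, and Mrpl33 (249.4 TPM) followed Mrps21. In saline tumours the order was led by Mrpl52 (291 TPM), Mrpl42 (250 TPM), Mrps21 (189 TPM), Mrpl23 (159 TPM), Mrpl30 (136.5 TPM) and Mrpl13 (135.6 TPM), with a median of 47.8 TPM. Mrpl47 was lowest there too, at 9.60 TPM, followed by Mrps25 (10.7 TPM). Neighbours in these orders were mostly not separable: in 55 of 76 neighbouring pairs in control cultures and 60 of 76 in saline tumours the libraries of both genes overlapped. Both genes at the bottom of the saline tumours have long annotated transcripts, of 3364 bases for Mrpl47 and 6073 for Mrps25, and share exon bases with other genes. Whether these transcripts are the ones expressed was not tested.

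**Figure D2:**
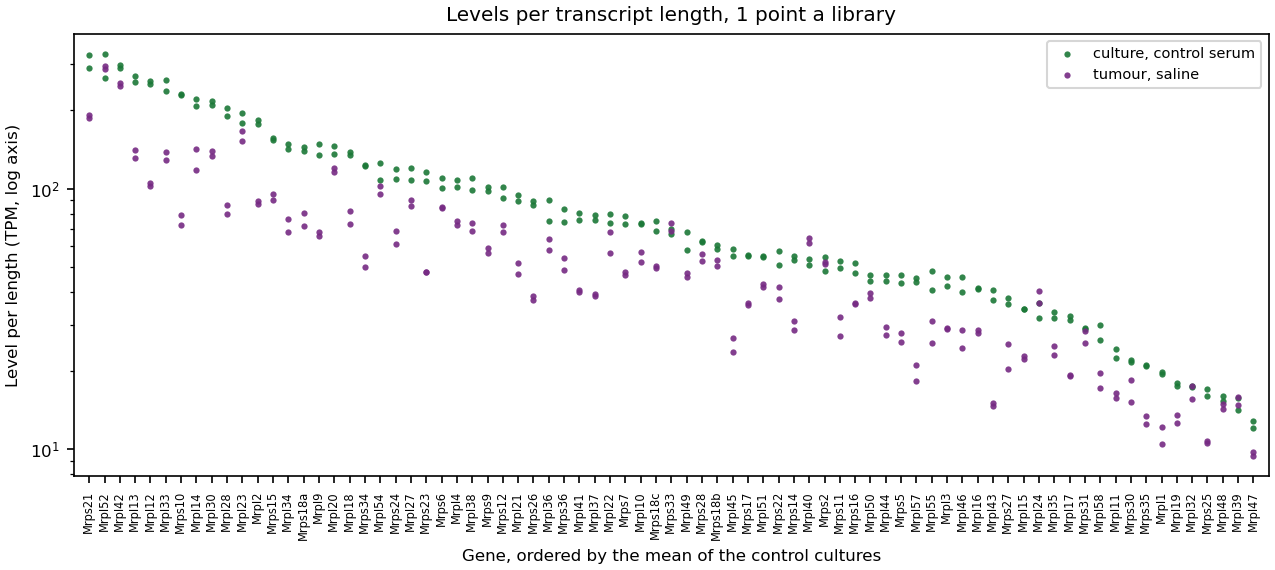
Level per annotated transcript length (TPM, log axis) of the 77 detected genes in the 2 control culture libraries (green) and the 2 saline tumour libraries (purple), 1 point a library, ordered by the mean of the control cultures. The green points run from 308 TPM for Mrps21 to 12.4 TPM for Mrpl47, and the purple points lie below the green ones for most genes.

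The first comparison asked how serum containing mLJZD altered these RNAs in cultures. With edgeR's quasi-likelihood test and Benjamini-Hochberg adjustment over all genes, called at an adjusted p under 0.05, 69 of the 77 genes fell and 0 rose. Of all genes tested in cultures, 55.4% were called, 26.6% lower and 28.8% higher. The median log2 fold change of the 77 was -0.53, against -0.01 over all genes tested. Without adjustment, 72 were lower and 0 higher at p under 0.05, and DESeq2 called 64 lower and 0 higher. Both subunits shifted: 43 of 50 large-subunit genes fell (median -0.52), as did 25 of 26 small-subunit genes (median -0.55). Genes with a bacterial homologue (40 of 46 lower, median -0.55) and genes found in mitochondria only (27 of 29 lower, median -0.50) gave medians close to each other.

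Mrpl57, a large-subunit protein found in mitochondria only, changed most in cultures. It had 71.1 and 66.6 CPM in control cultures and 26.3 and 30.7 CPM in mLJZD cultures. Its log2 fold change was -1.33 (SE 0.098, edgeR adjusted p = 8.48e-08), and both treated libraries lay below both controls. Mrps12, a protein of the decoding centre, had 49.0 and 43.0 CPM in control cultures and 20.5 and 23.1 CPM in mLJZD cultures (log2 fold change -1.13, SE 0.11, edgeR adjusted p = 1.06e-06). Mrpl23, of the large subunit, had 74.0 and 65.2 CPM against 30.6 and 38.4 CPM (-1.07, SE 0.11). Mrpl54, found in mitochondria only, had 41.2 and 34.4 CPM against 17.8 and 20.9 CPM (-1.02, SE 0.13). In each of these genes the groups did not overlap. The next largest decreases were those of Mrpl14 (-1.01), Mrpl55 (-0.97), Mrps11 (-0.95) and Mrps16 (-0.92), all homologues of bacterial proteins.

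Genes with further roles fell in cultures as well. Mrpl12 had 186 and 175 CPM in control cultures and 140 and 123 CPM in mLJZD cultures (-0.52, SE 0.082). Mrpl45, which lies near the exit of the polypeptide tunnel and holds the ribosome at the inner membrane, had 73.3 and 75.4 CPM against 55.3 and 54.3 CPM (-0.50, SE 0.079). Mrpl44, which has an RNase III-like fold, had a log2 fold change of -0.68 and Mrpl58, a peptidyl-tRNA hydrolase built into the large subunit, of -0.66. All 4 were called lower. The Mrps18 paralogues fell too: Mrps18a in the large subunit (-0.85), Mrps18c (-0.62) and Mrps18b (-0.43). Mrps36, which is no ribosomal protein, fell by 0.62.

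The 8 genes not called in cultures were Mrpl3, Mrpl9, Mrpl16, Mrpl19, Mrpl47, Mrpl49, Mrpl50 and Mrps2. Mrpl16 had 26.5 and 25.3 CPM in control cultures and 31.9 and 29.3 CPM in mLJZD cultures, which did not pass the test although the groups did not overlap (log2 fold change 0.18, edgeR adjusted p = 0.171). Mrps2 had 54.8 and 59.8 CPM against 58.6 and 70.3 CPM, with overlapping groups. When each library was left out in turn, 62 of the 69 decreases were called in all 4 fits. Those lost at least once were Mrpl24, Mrpl39, Mrpl43, Mrps18b, Mrps27, Mrps30 and Mrps31.

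**Figure D3:**
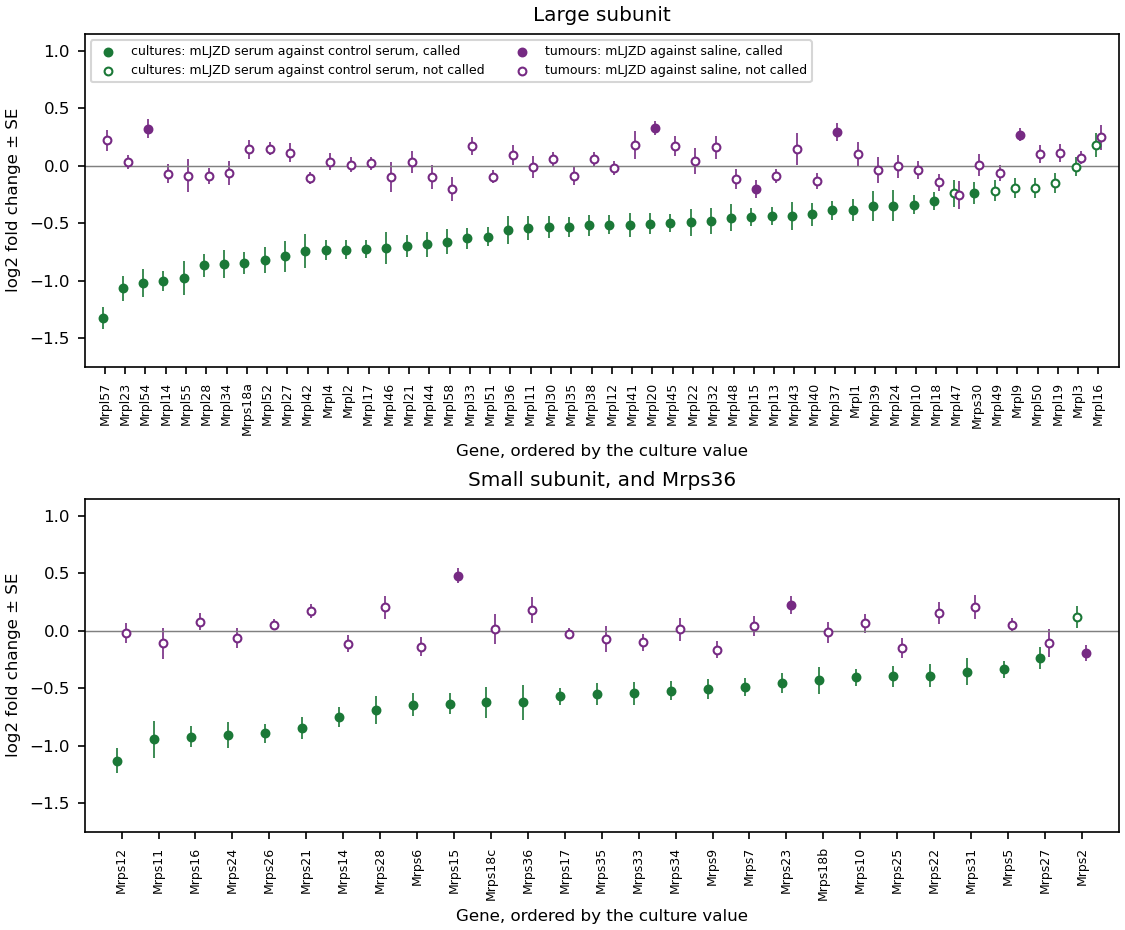
Log2 fold changes with standard errors under treatment in cultures (green) and in tumours (purple), for the large-subunit genes (upper panel) and the small-subunit genes with Mrps36 (lower panel), ordered by the culture value; filled points were called at an edgeR adjusted p under 0.05 and open points were not. Culture values run from -1.33 for Mrpl57 to 0.18 for Mrpl16, and tumour values from -0.26 to 0.48.

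In cultures the size of the change followed transcript length over the whole table. Coding genes with an annotated transcript under 600 bases had a median log2 fold change of -0.80, those of 600 to under 1000 bases -0.74, those of 1000 to under 1500 bases -0.53, those of 3000 to under 5000 bases 0.21 and those of 5000 bases or more 0.72. The mitochondrial ribosomal protein genes under 2000 bases lay close to the median of their length class: 21 genes of 600 to under 1000 bases had a median of -0.69 and 22 of 1000 to under 1500 bases one of -0.48. Those with longer annotations did not. The 8 genes of 2000 to under 3000 bases had a median of -0.58 against -0.11 for all coding genes of that class, the 13 of 3000 to under 5000 bases -0.45 against 0.21, and the 4 of 5000 bases or more -0.48 against 0.72. Across the 77 genes, all measured in the same libraries, Spearman's rho of the log2 fold change was 0.46 with annotated length and -0.392 with GC content.

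A fit removing the trend of all genes with length and GC content from each library gave 23 of 77 genes lower and 4 higher. Their median was -0.09 (0.05 over all genes). Across the 77, rho was then -0.552 with annotated length and 0.596 with GC content. Within the set the dependence was thus turned, not removed. Of all genes, this fit called 32.5%, 12.7% lower and 19.8% higher. Of the 69 decreases 20 kept their call, and Mrps34 and Mrpl38 turned to higher. Mrpl12 and Mrps18b also changed sign, to 0.15 and 0.17, and were not called. By class, 1 of 24 tested genes under 1000 bases was lower and 1 higher (median -0.02), 0 of 28 genes of 1000 to 2000 bases were lower and 2 higher (median 0.06), and 22 of 25 genes of 2000 bases or more were lower and 1 higher (median -0.75). Mrpl57 had -1.44, Mrps26 -1.21, Mrps16 -0.94 and Mrpl45 -0.41 in that fit, all called lower. The last class depends on which length is used. With coding length in place of transcript length, 16 of those 25 were lower (median -0.32), Mrpl57 had -0.98 and Mrpl45 -0.32, and over the set 22 genes were lower and 3 higher. All of these 22 were among the 69 genes that fell without removal. For the short genes, a decrease of their own and the shift of short transcripts as a whole in these libraries cannot be told apart.

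**Figure D4:**
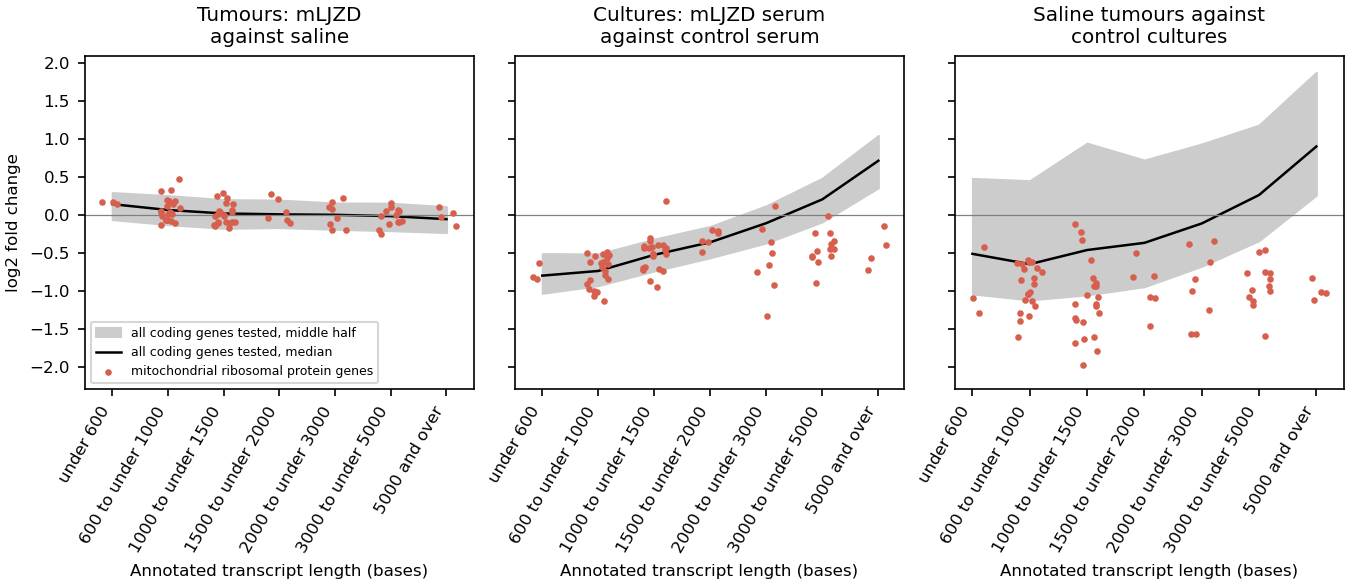
Log2 fold changes by class of annotated transcript length in tumours under treatment (left), in cultures under treatment (middle) and between saline tumours and control cultures (right), for mitochondrial ribosomal protein genes (red points) over the median and interquartile range of all coding genes tested (black line and grey band). In cultures the band rises from a median of -0.80 under 600 bases to 0.72 at 5000 bases or more, and the red points at 3000 to under 5000 bases have a median of -0.45, below the band's median of 0.21.

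In tumours mLJZD left most of these RNAs without a called change. By the same test 6 of 77 genes were higher and 2 lower, whereas of all genes 31.4% were called, 15.4% higher and 16% lower. The median log2 fold change was 0.014, against 0.00092 over all genes. Mrps15, a small-subunit protein with a bacterial homologue, had 38.8 and 41.2 CPM in saline tumours and 53.0 and 56.0 CPM in mLJZD tumours. Its groups did not overlap, and its change of 0.48 on the log2 scale (SE 0.065, edgeR adjusted p = 2.06e-05) was the largest increase of the set. Mrpl20, of the large subunit, had 40.4 and 42.0 CPM against 50.04 and 51.04 CPM (0.33, SE 0.064, edgeR adjusted p = 0.00071). Mrpl54 rose by 0.32, Mrpl37 by 0.29, Mrpl9 by 0.27 and Mrps23 by 0.23.

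The 2 genes lower in mLJZD tumours passed narrowly. Mrps2 had 49.8 and 49.0 CPM in saline tumours and 44.3 and 40.0 CPM in mLJZD tumours (-0.20, SE 0.069, edgeR adjusted p = 0.038). Mrpl15 had 42.9 and 44.2 CPM against 39.1 and 34.8 CPM (-0.20, SE 0.074, edgeR adjusted p = 0.0479). Mrps15 was the only one of the 8 called in all 4 fits that leave out a library. Without mLJZD replicate 1, or without mLJZD replicate 2, 1 gene was called higher and 0 lower. DESeq2 called 4 higher and 0 lower, with 5 and 0 at an unadjusted p under 0.05, against 11 and 5 in edgeR. Mrpl57, the gene that fell most in cultures, had 27.7 and 24.2 CPM in saline tumours and 30.6 and 28.6 CPM in mLJZD tumours and was not called (0.22, edgeR adjusted p = 0.0804). Transcript length bore less on the tumours: the median of all coding genes ran from 0.14 under 600 bases to -0.05 at 5000 bases or more. With that trend removed 5 genes were higher and 4 lower, against 33.2% of all genes called, 16.6% higher and 16.6% lower.

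Other RNA also differed between the saline and mLJZD tumours. Skeletal muscle markers summed to 0.307% to 0.309% of counts in saline tumours and 0.0559% to 0.0562% in mLJZD tumours, with 12 of 14 tested markers lower and 1 higher. B and plasma cell markers rose from 0.00491% to 0.00504% up to 0.0349% to 0.0384% (5 of 9 higher), and neutrophil markers from 0.00210% to 0.00211% up to 0.00391% to 0.00421% (7 of 9 higher), where Elane, Ly6g and Mpo were at 0 in saline tumours. Erythroid markers summed to 0.00182% to 0.00222% and then 0.00438% to 0.00470% (5 of 5 higher). Epithelial markers summed to 0.0294% to 0.0299% in saline tumours and 0.0183% in both mLJZD tumours, and 3 of 4 tested were lower: Krt18 (16.6 and 15.8 CPM, then 1.86 and 2.23 CPM), Krt20 (276 and 271 CPM, then 175 and 176 CPM) and Krt8. Macrophage markers summed to 0.272% to 0.279% and then 0.248% to 0.258%, with Mrc1, Cd163, Csf1r and Fcgr1 lower, Cd68 higher and 5 of 10 not called. Of T cell markers 1 of 9 was higher and 2 lower, and the lowest edgeR adjusted p among 7 endothelial markers was 0.0925 (Emcn). In bulk RNA, fewer cells of a type and less RNA per cell cannot be told apart, and the part of these cells in the levels above was not tested. The replicates of a group may be repeats of a single tumour. Treatment and a difference between single tumours therefore cannot be told apart here.

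The controls of both materials were then compared. In this contrast, which shares its control cultures and its saline tumours with the treatment comparisons, 75 of the 77 genes were lower in saline tumours and 0 higher. Of all genes 80.6% were called, 35.7% lower and 44.9% higher. At an unadjusted p under 0.05 the counts were 75 and 0, and DESeq2 called 74 and 0. The median log2 fold change was -1.01, against 0.15 over all genes. All 26 small-subunit genes and 48 of 50 large-subunit genes were lower. Mrps10, a homologue of bacterial S10, had 127 and 123 CPM in control cultures and 33.7 and 37.2 CPM in saline tumours, with no overlap (-1.98, SE 0.067, edgeR adjusted p = 1.11e-09). Mrpl12 had 61.7 and 63.5 CPM in saline tumours against 186 and 175 CPM (-1.69, SE 0.059). Mrps26, found in mitochondria only, had 75.8 and 73.6 CPM against 210 and 195 CPM (-1.60, SE 0.059).

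Further large decreases in tumours were those of Mrpl43 (-1.79), Mrpl28 (-1.63), Mrps23 (-1.61), Mrps34 (-1.61) and Mrpl57 (-1.57). Reads of Mrpl43 may be shared with Twnk and those of Mrps34 with Mapk8ip3 and Nme3, which overlap them. The 2 genes not called were Mrpl24 (-0.22) and Mrpl40 (-0.12). Mrpl40 had 37.6 and 34.5 CPM in control cultures and 36.3 and 37.9 CPM in saline tumours, so that the groups overlapped. When the length and GC trend was removed, 58 genes were lower and 4 higher, with a median of -0.61, while of all genes that fit called 77.3%, 34.1% lower and 43.2% higher. Removal moved Spearman's rho with annotated length across the 77 from -0.00103 to -0.676. With coding length, 63 were lower and 4 higher. Tumours hold RNA of host cells, here 0.272% to 0.279% of counts from macrophage markers in saline tumours, which were near 0 in cultures. Its part in the difference was not tested.

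The treatment effect differed between tumours and cultures for most of the set. An interaction test over all 8 libraries called 67 of 77 genes higher, meaning a less negative or more positive effect in tumours than in cultures, and 0 lower. Of all genes 44.4% were called, 23.8% higher and 20.5% lower. At an unadjusted p under 0.05 the counts were 72 and 0, and in DESeq2 59 and 0. The median of the interaction was 0.66, against 0.07 over all genes. It was 1.63 for Mrpl57 (SE 0.13), 1.43 for Mrpl54 (SE 0.15), 1.2 for Mrps12 (SE 0.14) and 1.197 for Mrps15 (SE 0.11), each with an edgeR adjusted p of at most 2.22e-06. Mrps15 was called in opposite directions, higher in treated tumours and lower in treated cultures (-0.63). The interaction also followed transcript length over the whole table. All coding genes of 600 to under 1000 bases had a median of 0.83, against 0.92 for genes of the set. At 1000 to under 1500 bases these were 0.58 and 0.65, and at 3000 to under 5000 bases -0.15 and 0.53. For the short genes, an interaction of their own and that of short transcripts as a whole cannot be told apart. With the length and GC trend removed, 23 genes were higher and 2 lower, with a median of 0.19, while of all genes 29.9% were called, 16.3% higher and 13.6% lower. Of these 23, 21 had an annotated transcript of 2000 bases or more. Removal moved Spearman's rho with annotated length across the 77 from -0.548 to 0.553, so that within the set the dependence was turned.

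Other genes of mitochondrial translation were described from lists. Among 5 mitoribosomal proteins without such a symbol, 4 were lower in treated cultures and Ptcd3 was higher (0.35), Aurkaip1 was higher in treated tumours (0.40, SE 0.057, edgeR adjusted p = 3.34e-05), and all 5 were lower in saline tumours than in control cultures. In treated cultures, 15 of 25 assembly factors were lower and 1 higher, and 5 of 14 translation factors were lower and 5 higher. Of 20 mitochondrial aminoacyl-tRNA synthetases 4 were lower and 3 higher. Over all genes tested in cultures, 26.6% were lower and 28.8% higher. Whether these lists depart from those shares was not tested. Calls and values of these lists are without removal of the length and GC trend, whose part in them was not tested. The largest called changes of translation factors were those of Tsfm (-0.53), Oxa1l (-0.48), Tufm (-0.40) and Mrrf (-0.38) on the lower side. On the higher side they were those of Lrpprc (0.44), Mtif2 (0.34), Guf1 (0.34) and Gfm1 (0.31). Tufm is the elongation factor that delivers aminoacyl-tRNA, Tsfm recharges it, and Gfm1 is the translocase. In saline tumours, against control cultures, 12 of 14 translation factors were lower and 0 higher, and 18 of 26 assembly factors were lower and 2 higher. Of 20 synthetases 19 were lower, with Lars2 higher (1.78), where of all genes 35.7% were lower and 44.9% higher. Lars2 had 1445 and 1080 CPM in saline tumours and 306 and 351 CPM in control cultures. In mLJZD tumours its replicates lay apart, at 838 and 1631 CPM, and the handling of multiple-mapping reads is not known.

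In treated tumours the RNAs of proteins encoded in mitochondrial DNA were lower for 9 of 13 genes, with a median of -0.38, among them mt-Cytb (-0.40, SE 0.041, edgeR adjusted p = 8.73e-07). The called genes included mt-Nd4l, at 1.36 to 3.50 CPM in tumours. They also included mt-Co3, whose groups overlapped (18.7 and 58.8 CPM in saline, 23.25 and 12.9 CPM in mLJZD tumours). Levels in tumours were uneven, with 5759 to 8075 CPM for mt-Co1 and 18.9 to 24.5 CPM for mt-Co2. The handling of multiple-mapping reads is not known, and its part in these counts was not tested. In treated cultures 7 of 12 mitochondrially encoded genes were lower and 1 higher. Their mLJZD replicates lay apart, with 0.567% and 1.05% of counts against 0.986% and 1.02% in control cultures. Over all genes, 16% were lower and 15.4% higher in treated tumours, and 26.6% and 28.8% in treated cultures. In treated tumours, regulators of mitochondrial transcription changed in both directions: Polrmt, the mitochondrial RNA polymerase, fell by 0.57 and Tfb2m, its initiation factor, by 0.41, while Myc rose by 0.42 and Esrra by 0.29. The cytosolic ribosomal proteins, another set of short transcripts, had medians farther from 0. In treated tumours 67 of 83 were higher and 1 lower (median 0.28), and in treated cultures 77 of 82 were lower (median -0.82). They held 5.85% to 5.97% of counts in saline tumours and 6.93% to 7.28% in mLJZD tumours, and 7.91% to 8.76% in control cultures and 4.80% to 4.93% in mLJZD cultures. By promoter motif, the median log2 fold change of the mitochondrial ribosomal protein genes in treated cultures was -0.53 with and -0.53 without the NRF1 motif, -0.63 and -0.51 for the ETS motif, and -0.55 and -0.52 for the YY1 motif.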

How the data were processed

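Raw counts per gene were deposited by the authors as 1 table. Per the submitters' processing notes, Trim Galore, FastQC 0.12.1, HISAT2 2.2.1, SAMtools 1.14, featureCounts 2.0.3 and build GRCm39 were used; the sources used here do not give annotation release, strand setting or multiple-mapping handling. Per the labels' protocols, RNA was extracted and libraries were made with Vazyme kits.

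Symbols, gene class and length came from GENCODE M21, matched by identifier, which named 52029 identifiers. The 4924 unnamed ones held 0.343% to 0.596% of counts and stayed in the tests. Genes were tested with edgeR 4.0.16 (R 4.3.3; quasi-likelihood F test, two-sided, TMM, filterByExpr, Benjamini-Hochberg over all genes), with 4 libraries per fit and all 8 for the interaction. SE is the size of the log2 fold change over the root of F. TPM used the principal transcript. Alternatives used DESeq2 1.42.0, other scalings, no filter, a replicate block, leaving out each library, and per-library offsets from a spline (6 degrees of freedom) in log2 length and GC. edgeR and the spline offsets were checked on simulated counts.

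The members, gene lists and rules were chosen with earlier results of these data known. Named genes are, per comparison, the 8 largest called changes per direction (at least 1 CPM, no overlap outside the interaction), called genes against the majority, the 6 most and least abundant per length, genes with a particular place or role, and up to 4 called genes per direction of each list. Genes not called, and those turned by the trend fit, were named after their values were seen. The settings of the trend fit were changed because of the simulated share of false calls, when counts under the first settings (prior count 2, ends held at 1%) had been seen; 0.5 and 0.1% were used. Longest transcript and coding length were added later, so 3 length definitions were tried.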

Additional observations from a re-analysis of the deposited data

Results flagged for a closer look

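The effect of mLJZD differed between tumours and cultures by an interaction test (edgeR, over all 8 libraries) for 67 of the 77 genes, all with a positive interaction. Over all genes 44.4% were called, 23.8% higher and 20.5% lower. Among all coding genes of 600 to under 1000 bases, 64.8% were called higher. The 8 largest log2 interactions were those of Mrpl57 (1.63), Mrpl54 (1.43), Mrps12 (1.2), Mrps15 (1.197), Mrpl23 (1.19), Mrps21 (1.10), Mrps16 (1.09) and Mrps18a (1.07). In all fits that leave out 1 library, 51 of the 67 were called. With the length and GC trend removed, 21 of the 67 kept their call and Mrps34 turned; Mrpl57, Mrps15, Mrps21 and Mrps16 were among the genes called higher there.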

How the results depend on the processing

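Removing the length and GC trend left, in cultures, 23 lower and 4 higher with a median of -0.09, and in the interaction 23 higher and 2 lower with 0.19. The contrast of saline tumours and control cultures then had 4 higher and a median of -0.61, and treated tumours had 4 lower and -0.012. With a replicate block besides, these were 23, 4 and -0.093 in cultures, 23, 2 and 0.19 in the interaction, 4 and -0.61 in the control contrast, and 6 lower and -0.012 in tumours. With the settings tried first they were 23, 4 and -0.095, then 24, 2 and 0.20, then 4 and -0.60, then 4 and -0.011. With the longest transcript they were 34, 3 and -0.17, then 38, 3 and 0.28, then 4 and -0.66, then 5 and -0.010. With coding length they were 22, 3 and -0.13, then 20, 2 and 0.23, then 4 and -0.63, then 9 and -0.040. Over all genes, 7365 were called in cultures without and 4327 with removal (4302 with the block, 4750 by coding length, 4320 at first settings).

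Single genes turned sign under removal. In the order as described, with block, first settings and longest transcript, Mrps18b had 0.17, 0.16, 0.17 and 0.21 in cultures, 0.017, 0.017, 0.0035 and 0.030 in the control contrast, and -0.13, -0.13, -0.12 and -0.18 in the interaction. Mrpl12 had 0.15, 0.15, 0.14 and 0.17 in cultures (0.16 by coding length) and -0.095, -0.095, -0.090 and -0.13 in the interaction (-0.14 by coding length). Mrpl54 had 0.038 in cultures by coding length. The cause was not tested.

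Scaling moved medians. Library totals gave -0.019 in tumours, -0.48 in cultures, -0.85 in the control contrast and 0.48 in the interaction, where 1 gene was lower; they moved the median of all genes by 0.163 and -0.160 in the last pair, and the share of higher among called genes in the interaction from 53.7% to 39.7%. Upper-quartile scaling gave -0.65 in cultures, with all genes moved by -0.112, and 0.68 in the interaction. RLE scaling gave 1 lower in tumours, -0.99 in the control contrast and 0.62 in the interaction, and DESeq2 gave 0, -0.99 and 0.62. Without a filter there were 0 lower in tumours (median 0.0038), and 1 lower and a median of 0.54 in the interaction, with all genes moved by 0.279 in the control contrast and -0.169 in the interaction. All 8 libraries in 1 fit gave 0 lower in tumours and -0.61 in cultures.

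Leaving out each library gave 1 to 6 higher and 0 to 0 lower in tumours (median -0.00073 to 0.060), 0 to 1 higher and 65 to 66 lower in cultures (-0.60 to -0.47; the 1 without mLJZD replicate 1), 73 to 77 lower in the control contrast (-1.08 to -0.95), and 54 to 68 higher and 0 to 1 lower in the interaction (0.59 to 0.70). In tumours 1087 genes were called without mLJZD replicate 1 and 1974 without replicate 2, against 4835.

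The deviations of the libraries gave no sign that the replicate numbers pair the samples (correlations -0.104, 0.0223 and -0.00256). With 2 libraries a group they cannot exclude a pairing or a shared batch. With a replicate block the counts were 6 higher and 1 lower in tumours, 68 lower in cultures, 75 lower in the control contrast and 69 higher in the interaction. Pairing the tumours crosswise gave 7 higher and 2 lower (5411 genes in all, against 4461 with the block as numbered).

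The precision is limited by 2 libraries a group, and counts of genes that share exons cannot be separated by strand. A level per length rests on annotation of another build.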
